A study of Mus musculus with 8 samples.

Results

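The genes described here are 8 genes of the sympathetic nerve and of the noradrenaline it releases, measured in whole ovaries of newborn mice: *Slc6a2*, *Th*, *Dbh*, *Hand2*, *Gap43*, *Npy*, *Slc18a2* and *Ngfr*. They are 8 of the 24823 gene IDs in the count table. The group was chosen by its log2 fold changes between the genotypes compared here, in which *Slc6a2* and *Hand2* are among the strongest decreases. The genotype differences of the 8 genes are therefore given as a description, without a test of their own. The cKO ovaries carried floxed *Nr5a2* alleles (Nr5a2 f/f) and 1 copy of a Cre transgene driven by *Amhr2* (Amhr2-cre Tg/+). Their CON littermates were also Nr5a2 f/f but carried no Cre (Amhr2-cre +/+). Both were collected on postnatal day (PND) 4, untreated, and each genotype gave 4 libraries of whole-ovary RNA. Cre is made where *Amhr2* is transcribed, which the study located in granulosa cells and the surface epithelium, and the libraries hold every cell type of the organ and any tissue dissected with it.

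Sympathetic neurons make noradrenaline from tyrosine. Tyrosine hydroxylase (*Th*) makes DOPA, dopa decarboxylase (*Ddc*) makes dopamine, and dopamine beta-hydroxylase (*Dbh*) turns dopamine into noradrenaline inside vesicles that the transporter encoded by *Slc18a2* has filled. The noradrenaline transporter (*Slc6a2*) takes released noradrenaline back up. *Hand2* encodes a basic helix-loop-helix transcription factor that sympathetic neurons need and that limb, heart, uterine stroma and other mesenchyme also use. *Gap43* is a growth cone protein, *Npy* a peptide released with noradrenaline, and *Ngfr* the p75 neurotrophin receptor of neurons, glia and other cells. The cell bodies of sympathetic neurons lie in ganglia outside the ovary, so that the ovary receives their axons with little of their nuclear or cell body RNA.

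Among the 6 genes with a promoter sequence, *Th* and *Slc18a2* are shown for a motif that the other 4 lack. *Hand2* is shown for a motif that *Th* and *Dbh* also carry. RefSeq sequences (GRCm38.p6) were matched for 6 of the 8 genes, not for *Slc6a2* and *Gap43*. The cyclic AMP response element TGACGTCA, searched on both strands, lies 45 bases before the start of *Th* (chr7:142899996-142900245, minus strand, 250 bases before the start, motif in capitals).
Th promoter: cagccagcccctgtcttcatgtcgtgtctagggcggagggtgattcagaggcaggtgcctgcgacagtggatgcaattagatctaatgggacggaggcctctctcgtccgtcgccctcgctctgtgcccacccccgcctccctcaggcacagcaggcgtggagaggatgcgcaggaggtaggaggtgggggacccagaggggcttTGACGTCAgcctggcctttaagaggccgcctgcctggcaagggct
The same 8 letters span the start of *Slc18a2*, with 4 bases before it and 4 after (chr19:59260863-59260892, plus strand, 30 bases, motif in capitals).
Slc18a2 start site: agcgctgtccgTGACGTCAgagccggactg
Of 32851 mouse promoters, 1.55% hold this motif in the 250 bases before the start, and 1.79% when the 50 bases after the start are included. The other 4 matched promoters do not hold it. The promoter of *Hand2* (chr8:57320733-57320982, plus strand, 250 bases before the start) holds the homeodomain core TAATT or its complement at 3 places (capitals), of which those starting 175 and 174 bases before the start overlap and the other starts at 123 bases.
Hand2 promoter: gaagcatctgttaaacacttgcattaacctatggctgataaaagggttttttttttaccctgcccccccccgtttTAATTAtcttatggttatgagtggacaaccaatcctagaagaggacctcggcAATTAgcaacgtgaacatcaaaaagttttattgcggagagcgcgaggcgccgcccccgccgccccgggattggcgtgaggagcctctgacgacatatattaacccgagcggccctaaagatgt
A match to TAATT is common, at 25.0% of all promoters, and *Th* and *Dbh* have 1 each. *Hand2* also has the E-box CATCTG, which HAND proteins bind, 246 bases before its start, as do 14.4% of promoters. The broader E-box CANNTG was found in 5 of the 6 promoters, all but that of *Npy*, and in 66.2% of all. Of the sites bound by NR5A receptors, CAAGGTCA (1.33% of promoters) was in none of the 6, and CAAGGCCA (1.99%) was in that of *Slc18a2*, 239 bases before the start. These matches describe letters in a window, not bound sites.

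Read counts per gene were scaled to CPM (the reads of a gene relative to the size of its library) with TMM factors, which lay between 0.978 and 1.03 for libraries of 14649243 to 29066847 assigned reads. Libraries are numbered by the columns of the count table within each genotype. Of 15257 genes that passed the count filter, 79 (0.518%) were called lower and 136 (0.891%) higher in cKO, that is at an edgeR adjusted p under 0.05 and at least 1.5-fold. By adjusted p alone, 501 (3.28%) passed lower and 555 (3.64%) higher. At an unadjusted edgeR p under 0.05, 2030 were lower and 2371 higher. With the same thresholds for a call, DESeq2 called 179 genes lower and 254 higher, and limma-voom 112 lower and 189 higher. *Nr5a2* itself was counted at 18.5, 16.3, 15.02 and 12.2 CPM in CON 1 to 4 and at 30.98, 23.1, 27.9 and 27.8 CPM in the libraries labelled cKO 1 to 4. It thus rose by 0.82 on the log2 scale (SE 0.13, edgeR adjusted p = 0.0128, 0.0575 without CON 2 and 0.065 without CON 3). A gene count includes exons outside the floxed part and does not check the deletion. The study checked it by qPCR with a primer inside the floxed part and by immunostaining on PND4, and reported depletion in cKO ovaries. *Amhr2* had a log2 fold change of cKO over CON of -0.59 (SE 0.16) and did not pass by edgeR (adjusted p = 0.0539). CON 4 and cKO 3 stand apart by peripheral glia genes, and cKO 1 and cKO 2 by low smooth muscle genes. Both are described beside the genes they move with.

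Of the 8 genes, 7 passed the count filter and 3 of these were called, all lower in cKO: *Slc6a2*, *Hand2* and *Gap43*. Their 4 cKO values all lay below their 4 CON values, as for 1388 genes or 9.1% of those tested. Both counts follow from how the group was chosen. *Th*, *Slc18a2*, *Ngfr* and *Npy* were not called. *Dbh* was too rare to be tested. In RNA of a whole organ, fewer cells of a type and less RNA per cell cannot be told apart.

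**Figure D1:**
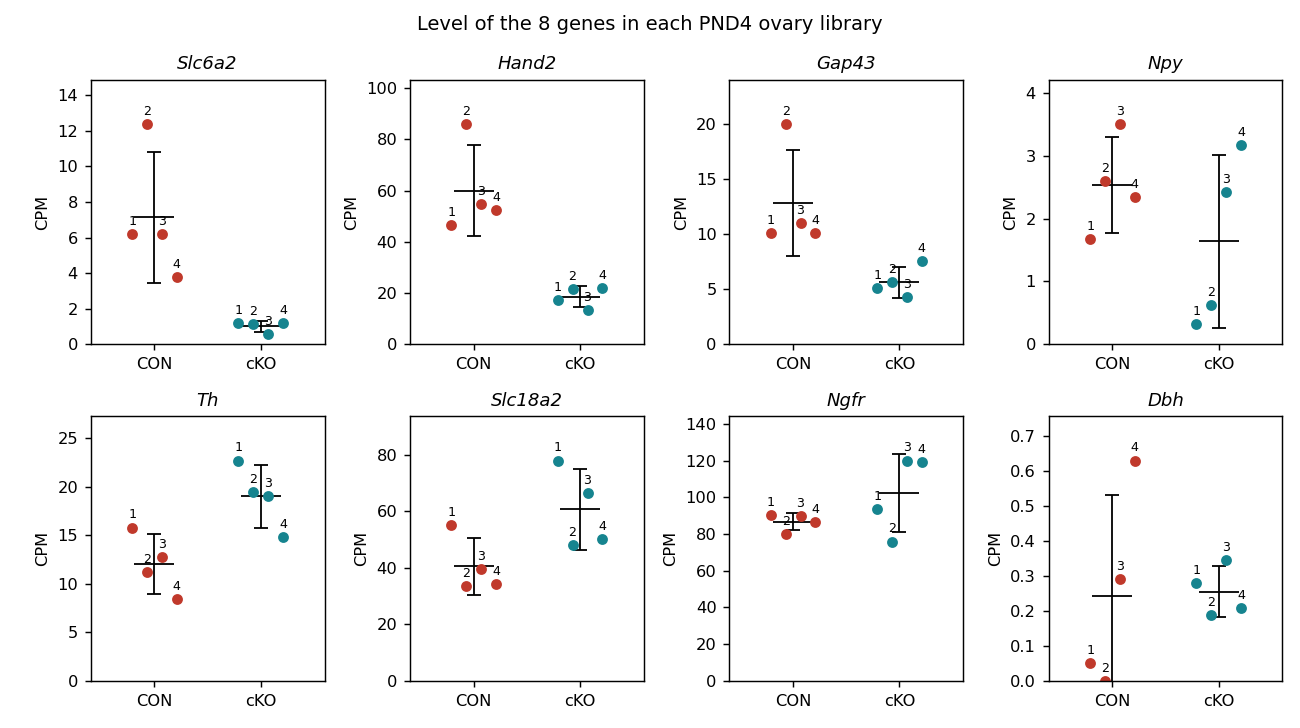
CPM after TMM scaling (linear axes from 0) of each of the 8 genes in the 4 CON (red) and 4 cKO (blue-green) libraries, numbered 1 to 4, with the mean and SD of each genotype in black. *Slc6a2*, *Hand2* and *Gap43* show no overlap between the genotypes and are highest in CON 2, *Th* and *Slc18a2* have the higher mean in cKO with overlapping values, and *Npy* splits the cKO libraries into cKO 1 and 2 at 0.321 and 0.623 CPM and cKO 3 and 4 at 2.42 and 3.18 CPM.

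*Th*, which encodes the rate-limiting enzyme of catecholamine synthesis, had 15.8, 11.2, 12.8 and 8.42 CPM in CON 1 to 4 and 22.7, 19.5, 19.01 and 14.8 CPM in cKO 1 to 4. The means were 12.1 ± 3.1 in CON and 18.99 ± 3.23 in cKO (SD, n = 4 each), and the lowest cKO library lay below the highest CON library. On the log2 scale cKO was 0.66 above CON (SE 0.19). *Slc18a2*, the vesicular monoamine transporter, was also on the higher side in cKO, with 55.1, 33.4, 39.6 and 34.3 CPM in CON and 77.96, 47.9, 66.5 and 50.3 CPM in cKO. Here the log2 fold change was 0.59 (SE 0.20), and again the genotypes overlapped, through CON 1. In both genes CON 1 was the highest CON library and cKO 1 the highest cKO library.

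*Dbh*, whose enzyme defines a noradrenaline cell among catecholamine cells, had almost no reads. The counts were 1, 0, 5 and 11 in CON 1 to 4 and 7, 3, 8 and 3 in cKO 1 to 4, against 147 to 318 reads of *Th* in CON and 214 to 564 in cKO. The largest level was 0.63 CPM, in CON 4. No fold change is given for *Dbh*. A step of the pathway was thus at the edge of detection in libraries where *Th*, 2 steps earlier, had at least 147 reads.

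*Slc6a2* (chromosome 8, 92960470 to 93001667) had 6.22, 12.4, 6.19 and 3.78 CPM in CON 1 to 4 and 1.17, 1.12, 0.562 and 1.18 CPM in cKO 1 to 4. These levels rest on 119, 353, 106 and 66 reads in CON and on 29, 18, 13 and 17 reads in cKO. The CON mean was 7.15 ± 3.69 and the cKO mean 1.01 ± 0.297 CPM (SD, n = 4), a 7.11-fold higher mean in CON. The log2 fold change was -2.86 (SE 0.40) and stayed between -3.14 and -2.43 under 18 other ways of processing the counts. CON 2, the deepest library, held the highest value and CON 4 the lowest of its genotype, and cKO 3 lay below the other cKO libraries, which ranged from 1.12 to 1.18 CPM.

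*Hand2* (chromosome 8, 57320983 to 57324517) had 46.7, 86.1, 54.8 and 52.4 CPM in CON and 17.4, 21.6, 13.2 and 22.1 CPM in cKO. The means were 60.0 ± 17.8 and 18.6 ± 4.14 CPM (SD, n = 4), with a log2 fold change of -1.71 (SE 0.22). As for *Slc6a2*, CON 2 was highest and cKO 3 lowest. Its neighbor *Hand2os1* is a noncoding gene on the other strand. In RefSeq the edge nearer to *Hand2* lies 123 bases before the start of *Hand2*, and in the GENCODE annotation the genes overlap. *Hand2os1* fell by 1.09 on the log2 scale (SE 0.26, edgeR adjusted p = 0.0416). That call was lost without CON 2 (edgeR adjusted p = 0.122), CON 3 (0.119), CON 4 (0.0833), cKO 2 (0.0819), cKO 3 (0.056) or cKO 4 (0.0584). The library kit was stranded. The annotation and strand setting of the counting are not given in the sources used here, so some reads of the pair may have been shared if an overlapping annotation was used without strand.

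*Gap43* (chromosome 16, 42248552 to 42340651) had 10.04, 19.98, 10.99 and 10.1 CPM in CON and 5.06, 5.61, 4.28 and 7.54 CPM in cKO, with means of 12.8 ± 4.82 and 5.62 ± 1.39 CPM (SD, n = 4). CON 2 again stood above the other CON libraries and cKO 3 was again the lowest. The log2 fold change was -1.21 (SE 0.26), and -0.90 without CON 2. The number of called genes among the 8 depended on single libraries. It was 0 without CON 2 and 0 without CON 3, where no gene of the whole table was called, 2 without CON 4, cKO 1, cKO 2 or cKO 3 (*Slc6a2* and *Hand2*), 4 without cKO 4 (with *Th* called higher), and 5 without CON 1 (with *Th* and *Slc18a2* called higher).

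*Npy* had 1.67, 2.60, 3.51 and 2.35 CPM in CON and 0.321, 0.623, 2.42 and 3.18 CPM in cKO. These levels rest on 32, 74, 60 and 41 reads in CON and on 8, 10, 56 and 46 reads in cKO. The cKO libraries were split, with cKO 1 and cKO 2 below every CON library and cKO 3 and cKO 4 inside the CON range. The log2 fold change was -0.66 (SE 0.59), and 0.13 without cKO 1 and cKO 2. *Ngfr* had 90.3, 80.1, 89.7 and 86.7 CPM in CON and 93.8, 75.9, 120 and 119 CPM in cKO, which is 0.24 higher on the log2 scale (SE 0.13). Its lowest and highest cKO values enclosed all CON values.

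The label of the group was set against genes that define sympathetic neurons. *Phox2a*, a homeodomain factor of noradrenaline neurons, reached at most 0.528 CPM in any library. *Hand1* had no read in any library, and *Tfap2b*, *Insm1* and *Hmx1* did not exceed 0.321 CPM. None of these 5 passed the count filter. *Pnmt*, which makes adrenaline from noradrenaline, had at most 0.415 CPM. The defining genes of a noradrenaline cell body, *Dbh* included, were therefore at or near 0. Because the ovary receives axons with little cell body RNA, these low values cannot show whether nerve was present. The 8 genes are not read here as a measure of nerve.

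Of 16 genes of noradrenaline synthesis, storage, uptake and breakdown outside the 8, 13 were tested and 0 passed, by edgeR, an adjusted p under 0.05, where 3.28% of all tested genes passed lower and 3.64% higher. At an unadjusted p under 0.05, 2 were lower and 0 higher, beside 2030 lower and 2371 higher of the 15257 tested genes. DESeq2 and limma-voom each called 1 of the listed genes, *Slc22a3*, lower. All cKO values lay below all CON values in 3 of the 13 (*Slc22a3*, *Pts* and *Spr*), or 23.1% beside 9.1% of all tested genes. Of the 13, 11 had a negative log2 fold change, and the median was -0.08 beside 0 over all tested genes. *Slc22a3*, a low-affinity uptake transporter for noradrenaline in cells other than neurons, had the largest difference. It had 18.5, 26.2, 24.3 and 20.9 CPM in CON and 6.51, 9.91, 16.4 and 17.01 CPM in cKO, without overlap, for a difference of -0.86 on the log2 scale (SE 0.28, edgeR adjusted p = 0.0823). *Maob*, which oxidizes amines, was -0.46 (SE 0.24), with 11.5 and 11.03 CPM in cKO 1 and 2 against 22.2 to 25.3 CPM in CON and 22.5 and 22.96 CPM in cKO 3 and 4. *Slc22a3*, *Maob* and *Npy* thus shared their lowest values in cKO 1 and cKO 2. *Maoa* was -0.18 (SE 0.08).

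The enzymes that make and recycle the tetrahydrobiopterin cofactor of TH are in this list. *Gch1* was -0.03 (SE 0.25), *Pts* -0.16 (SE 0.08), *Spr* -0.11 (SE 0.05) and *Qdpr* -0.08 (SE 0.07) on the log2 scale. *Ddc* lay between 1.99 and 2.98 CPM in CON and, in cKO, between 2.17 and 2.89 CPM. *Slc18a1*, the second vesicular transporter, was 0.66 (SE 0.32), *Cyb561*, which supplies electrons for DBH, -0.02 (SE 0.08), *Slc29a4*, a further amine transporter, 0.03 (SE 0.23), and *Sult1a1*, a sulfotransferase, -0.03 (SE 0.20). *Slc22a2* had at most 0.106 CPM and was not tested.

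Among 12 transcription factors of sympathetic neurons outside the 8, 6 were tested and *Gata2* passed by edgeR. *Gata2*, also a factor of blood and stromal cells, had 152, 185, 160 and 158 CPM in CON and 111, 126, 120 and 119 CPM in cKO. It fell by 0.46 on the log2 scale (SE 0.07, edgeR adjusted p = 0.0119), which is under 1.5-fold. It did not pass without CON 2 (edgeR adjusted p = 0.0575) or CON 3 (0.0613). *Gata3* was 0.72 (SE 0.22, edgeR adjusted p = 0.0716). DESeq2, whose own filter kept 11 of the 12, passed *Gata2* and called *Gata3* higher, and limma-voom passed *Gata2* alone. *Isl1* was 0.14 (SE 0.28), *Sox11* 0.03 (SE 0.06) and *Sox4* 0.06 (SE 0.06), all shared with other developing cells.

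**Figure D2:**
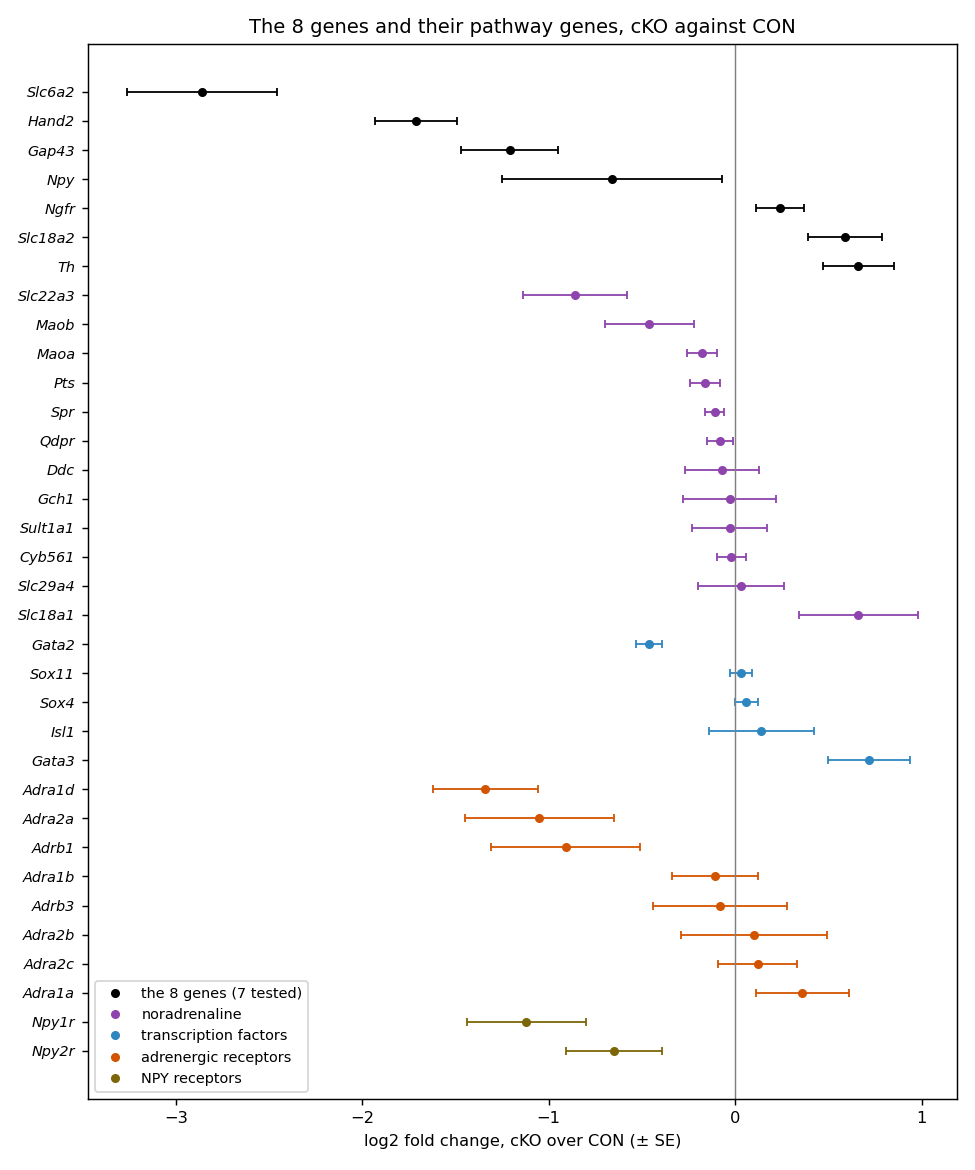
Log2 fold change of cKO over CON with its SE (bars) for the 7 tested genes of the group (black), and for the genes reported among the other noradrenaline genes (purple), the transcription factors (blue), the adrenergic receptors (orange) and the NPY receptors (brown). *Slc6a2*, *Hand2* and *Gap43* lie between -2.86 and -1.21, while the median of the 13 other tested noradrenaline genes is -0.08.

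The receptors for noradrenaline are made by its target cells. All 9 adrenergic receptor genes were tested, and *Adra1d*, an alpha-1 receptor of smooth muscle, was the one that was called. It had 6.12, 10.8, 8.12 and 4.30 CPM in CON and 2.25, 3.49, 2.59 and 3.53 CPM in cKO. *Adra1d* fell by 1.34 on the log2 scale (SE 0.28, edgeR adjusted p = 0.0323). The call was lost when CON 2 (edgeR adjusted p = 0.0953), CON 3 (0.107), cKO 1 (0.0515), cKO 2 (0.0639) or cKO 3 (0.0717) was left out. *Adra2a*, the receptor that inhibits adenylyl cyclase, had 45.3, 54.1, 57.3 and 35.7 CPM in CON and 9.08, 16.2, 34.1 and 34.5 CPM in cKO. All its cKO values lay below its CON values, but they were widely spread, and the difference of -1.05 (SE 0.40) did not pass (edgeR adjusted p = 0.129). *Adrb1* was -0.91 (SE 0.40), at 0.526 to 1.44 CPM in the CON libraries. The median of the 9 receptors was -0.11, with 6 negative and 3 positive values. At an unadjusted p under 0.05, 4 were lower and 0 higher, beside 2030 lower and 2371 higher of the 15257 tested genes. All cKO values lay below all CON values in 3 of the 9, or 33.3% beside 9.1% of all tested genes.

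Of 5 NPY receptor genes, *Npy1r* and *Npy2r* were tested and 0 passed by edgeR (2 lower at an unadjusted p under 0.05), while DESeq2 and limma-voom each called *Npy1r* lower. *Npy1r* had 1.78, 2.36, 1.99 and 2.18 CPM in CON and 0.402, 1.12, 1.21 and 1.18 CPM in cKO, without overlap, at -1.12 (SE 0.32, edgeR adjusted p = 0.0611). *Npy2r* was -0.65 (SE 0.26, edgeR adjusted p = 0.136). Of 11 further neuropeptide genes, 3 were tested and 0 passed by edgeR, DESeq2 or limma-voom, 1 of them being lower at an unadjusted p under 0.05. This was *Penk*, the enkephalin precursor, at -0.34 (SE 0.15). *Calca* and *Calcb*, peptides of sensory nerves, were at 0.01 (SE 0.29) and 0.09 (SE 0.31).

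Of 34 other genes of the axon and its vesicles, 31 were tested, with a median log2 fold change of 0.14 and 21 positive values. By edgeR, 0 passed lower and 2 passed higher, where 3.28% and 3.64% of all tested genes did. At an unadjusted p under 0.05 there were 2 lower and 7 higher. DESeq2 passed 0 lower and 5 higher, and limma-voom 0 lower and 3 higher. Of these, DESeq2 called 3 and limma-voom 2, beside 254 and 189 genes called higher in all. The 2 that passed by edgeR, *Elavl2* and *Uchl1*, are neuronal genes that oocytes also transcribe. *Elavl2* rose by 0.72 on the log2 scale (SE 0.15, edgeR adjusted p = 0.0343), with CON libraries at 39.7 to 64.1 CPM and cKO libraries at 66.5 to 93.01 CPM. Its call was lost without CON 2 (edgeR adjusted p = 0.109), CON 3 (0.113), CON 4 (0.0928), cKO 1 (0.0638), cKO 2 (0.0777) or cKO 3 (0.061). *Uchl1* rose by 0.53 (SE 0.13, edgeR adjusted p = 0.0416), under 1.5-fold, and did not pass without any 1 of the same libraries (edgeR adjusted p = 0.122, 0.123, 0.104, 0.0741, 0.0927 and 0.0766 in that order). *Stx1a*, *Ina* and *Tubb3*, of the synapse and the neuronal cytoskeleton, were at 0.29 (SE 0.08), 0.79 (SE 0.24) and 0.60 (SE 0.18). By edgeR 0 of these 3 passed, while DESeq2 passed all 3 and limma-voom passed *Tubb3*.

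The neurotrophins and the ligands of the GDNF family guide and feed sympathetic axons. Of 20 tested genes of this kind beside *Ngfr*, 0 passed by edgeR, with 3 lower and 3 higher at an unadjusted p under 0.05, while DESeq2 and limma-voom each called 1, *Ntf3*, lower. By adjusted p alone, DESeq2 passed 4 and limma-voom 2. *Ntf3*, the ligand neurotrophin-3, had 3.82, 3.87, 2.98 and 3.04 CPM in CON and 2.01, 1.93, 2.51 and 2.28 CPM in cKO, at -0.65 (SE 0.18, edgeR adjusted p = 0.0547). *Nrtn*, the ligand neurturin, was -0.33 (SE 0.10, edgeR adjusted p = 0.0745). *Sorcs3*, a sortilin family receptor, was 0.35 (SE 0.11). Over all 84 tested pathway genes outside the 8, 2 passed lower and 2 higher, and the median log2 fold change was -0.01. The share with all cKO values below all CON values was 13.1%, beside 9.1% of all genes, and the share with all above was 4.76%, beside 8.93%.

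The 8 genes did not vary as 1 unit between libraries of the same genotype. For each gene, the mean of its genotype was subtracted from its log2 CPM (prior count 2), which removes the difference that chose the group, and the 8 deviations were correlated. *Slc6a2*, *Hand2* and *Gap43* varied together, with Pearson's r of 0.84 for *Slc6a2* and *Hand2*, 0.84 for *Slc6a2* and *Gap43* and 0.93 for *Hand2* and *Gap43* (n = 8 libraries). Spearman's rho was 0.86, 0.86 and 1.00. Without the 2 libraries farthest out on the first of each pair, r was 0.83, 0.69 and 0.87. *Th* varied with *Slc18a2* (r = 0.77, rho = 0.62) and *Npy* with *Ngfr* (r = 0.73, rho = 0.69). Pairs between these sets ranged from r = -0.68 (rho = -0.71) for *Hand2* and *Slc18a2* to r = 0.28 (rho = 0.52) for *Slc18a2* and *Ngfr*, with -0.57 for *Gap43* and *Slc18a2*, -0.53 for *Th* and *Npy* and 0.21 for *Slc6a2* and *Th*. There are 21 pairs of the 7 genes. They are descriptions over 8 libraries that share depth and tissue composition, and no p is given.

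Each set moved with other genes of the organ. *Th* followed the mean of 10 oocyte genes within genotypes, with r = 0.96 and rho = 0.98 (n = 8), and *Slc18a2* followed it with r = 0.83 and rho = 0.74. Other lists varied with them too. Only 4 of the 10 listed sensory neuron markers were tested and enter their mean. For the sensory neuron markers r was 0.93 (rho = 0.90) with *Th* and 0.85 (rho = 0.57) with *Slc18a2*. For the granulosa genes these were 0.81 (rho = 0.90) and 0.72 (rho = 0.60). Without the 2 libraries farthest out on each list, these were 0.89 and 0.34 for the sensory neuron markers and 0.62 and 0.52 for the granulosa genes. For the oocyte genes, without CON 1 and CON 4, r was 0.94 for *Th* and 0.82 for *Slc18a2*. The summed level of the oocyte genes was 697 to 1110 CPM over the CON libraries and 1150 to 1470 CPM over the cKO libraries. All 10 had a positive log2 fold change (median 0.57), and 2 passed by edgeR (8 by DESeq2 and 5 by limma-voom). By edgeR, 3.64% of all tested genes passed higher. DESeq2 called 4 of the 10 higher and limma-voom 5, beside 254 and 189 genes called higher in all. *Ddx4* rose by 0.62 (SE 0.13, edgeR adjusted p = 0.0326) and *Dazl* by 0.74 (SE 0.18, edgeR adjusted p = 0.0432). Neither passed when CON 2, CON 3, CON 4, cKO 1, cKO 2 or cKO 3 was left out, and over all single libraries left out these edgeR adjusted p ranged from 0.00778 to 0.108 and from 0.023 to 0.126. The oocyte genes thus had higher values in the same libraries as *Th* and *Slc18a2*, and their part in the levels of both was not tested.

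*Npy* followed the mean of 11 smooth muscle genes, with r = 0.99 and rho = 1.00 (n = 8), and with r = 0.97 without cKO 1 and cKO 4. It varied in the same way with other lists, at r = 0.98 (rho = 0.95) for the neurotrophin and GDNF family genes, 0.90 (rho = 0.86) for endothelial genes, 0.87 (rho = 0.88) for the other neuropeptides and 0.82 (rho = 0.81) for the other noradrenaline genes. Without the 2 libraries farthest out on each list, these 4 values were 0.97, 0.70, 0.69 and 0.59. For *Ngfr* and smooth muscle genes r was 0.73 (rho = 0.69). The summed level of the smooth muscle genes was 2950 to 4040 CPM in CON and 1020, 1370, 2510 and 3220 CPM in cKO 1 to 4, so that cKO 1 and cKO 2 were low as for *Npy*. *Adra2a* shared this order, with r = 0.94 and rho = 0.93 to *Npy*. Of the 11 genes, 0 passed by edgeR (5 lower and 0 higher at an unadjusted p under 0.05), while DESeq2 and limma-voom each passed 1, *Synpo2*, lower. Whether the amount of muscle or vessel in a library sets *Npy* was not tested.

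**Figure D3:**
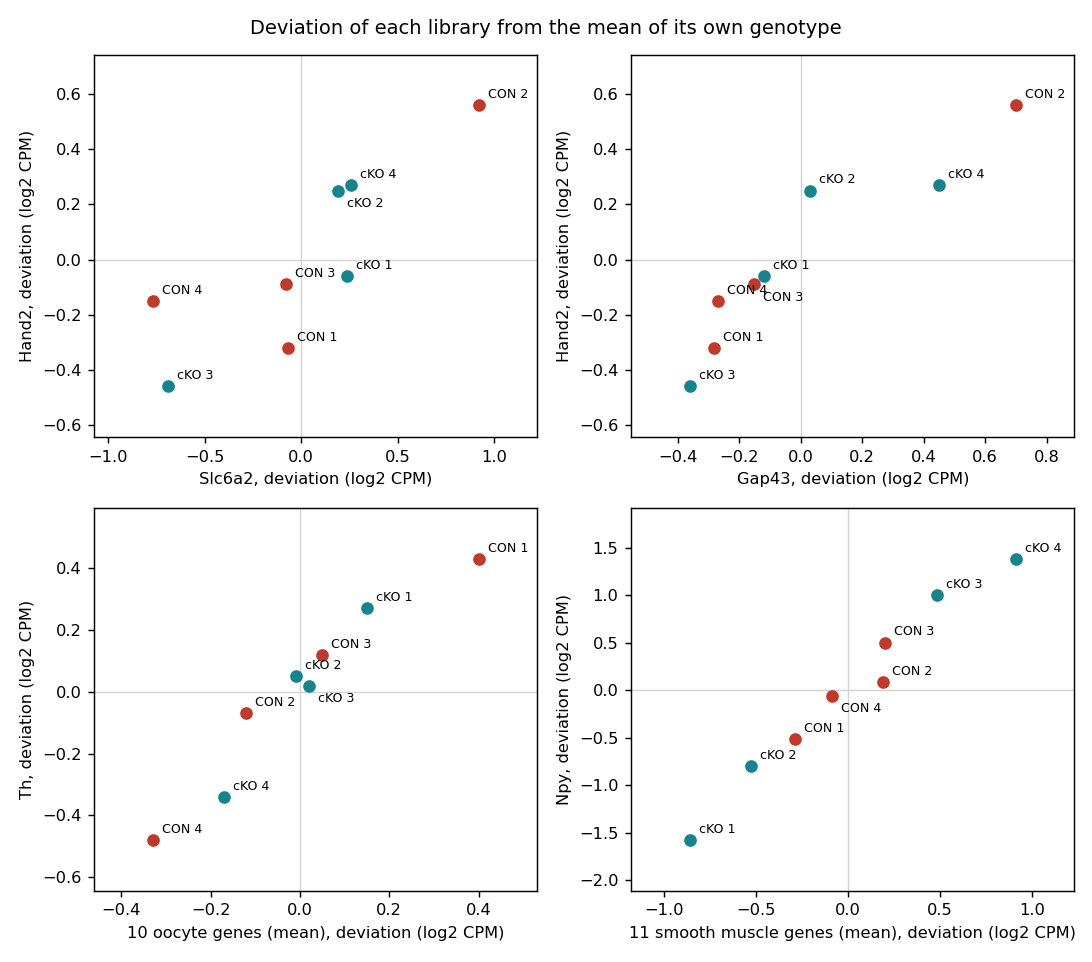
Deviation of each library from the mean of its own genotype, in log2 CPM, for *Hand2* against *Slc6a2*, *Hand2* against *Gap43*, *Th* against the mean of 10 oocyte genes and *Npy* against the mean of 11 smooth muscle genes (CON red, cKO blue-green, 1 point a library). Pearson's r is 0.84, 0.93, 0.96 and 0.99 in that order, and CON 2 is farthest up in both *Hand2* panels.

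*Slc6a2* and *Hand2*, and *Gap43* more weakly, varied with genes of the reproductive tract and mesonephros, the tissue beside the ovary. Within genotypes, the mean of 16 such genes had r = 0.74 and rho = 0.62 with *Slc6a2*, r = 0.62 and rho = 0.52 with *Hand2* and r = 0.43 and rho = 0.52 with *Gap43*. Without cKO 3 and cKO 1, r was 0.75, 0.68 and 0.52. The 16 genes include *Hand2os1*, the neighbor of *Hand2* that may share reads with it. For *Hand2os1* alone r was 0.73 with *Hand2* and 0.84 with *Slc6a2*. *Hoxa10*, a homeobox gene of the uterus and oviduct named after its values were seen, had 48.7, 99.3, 58.3 and 40.3 CPM in CON and 18.04, 26.9, 4.79 and 15.4 CPM in cKO. As for *Slc6a2*, CON 2 was the highest and CON 4 the lowest CON library, and cKO 3 was the lowest cKO library. *Hoxa11*, *Hoxd10*, *Hoxd11* and *Hand2os1* shared this order, but the list as a whole did not. *Lhx1* was highest in cKO 3, at 4.1 CPM. Among CON libraries, *Pax8* (58.1 CPM) and *Ovgp1* (193 CPM) were highest in CON 4, and *Foxj1* was lowest in CON 2 (50.7 CPM). *Pax8* had a log2 fold change of 0.02 (SE 0.11). Within genotypes r was 0.83 for *Hoxa10* and *Slc6a2* (rho = 0.79) and 0.83 for *Hoxa10* and *Hand2* (rho = 0.86). *Hoxa10* was -1.94 (SE 0.49, edgeR adjusted p = 0.0553). The summed level of the 19 listed genes ranged from 645 to 837 CPM among CON and from 415 to 678 CPM among cKO libraries. Of the 16 tested by edgeR, *Hand2os1* (whose call was lost without single libraries, as given above) and *Hoxa9* fell, *Hoxa9* by 0.48 (SE 0.11, edgeR adjusted p = 0.0376, but 0.117 without CON 2, 0.115 without CON 3, 0.0591 without CON 4 and 0.0728 without cKO 3), and 15 had a negative log2 fold change. DESeq2 and limma-voom each passed 6 of them, *Hoxa10* included, and called 5 lower. Over all genes, 3.28% passed lower by edgeR, while DESeq2 called 179 lower and limma-voom 112. The part of the listed genes in the levels of *Slc6a2* and *Hand2* was not tested.

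Schwann cells wrap peripheral axons, and their markers stood out in 1 library of each genotype. *Sox10*, which defines peripheral glia, had 11.5 CPM in CON 4 and 8.55 CPM in cKO 3 against 0.643 to 3.32 CPM elsewhere. *Mbp*, a myelin protein, had 163 CPM in CON 4 and 99.9 CPM in cKO 3, and 26.3 to 46.1 CPM in the other libraries. The summed level of 18 glia markers was 353, 365, 369 and 1040 CPM in CON and 356, 309, 756 and 361 CPM in cKO. No marker was at 0 in all libraries, and of the 17 tested 0 passed by edgeR (1 lower and 0 higher at an unadjusted p under 0.05), DESeq2 or limma-voom. The libraries with the most glia RNA were those with the lowest *Slc6a2* in each genotype, at 3.78 CPM in CON 4 and 0.562 CPM in cKO 3. Without both, the log2 fold changes were -2.85 for *Slc6a2*, -1.63 for *Hand2* and -1.20 for *Gap43*, and no gene of the whole table was called (0 by edgeR, with 1486 lower and 1691 higher at an unadjusted p under 0.05).

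**Figure D4:**
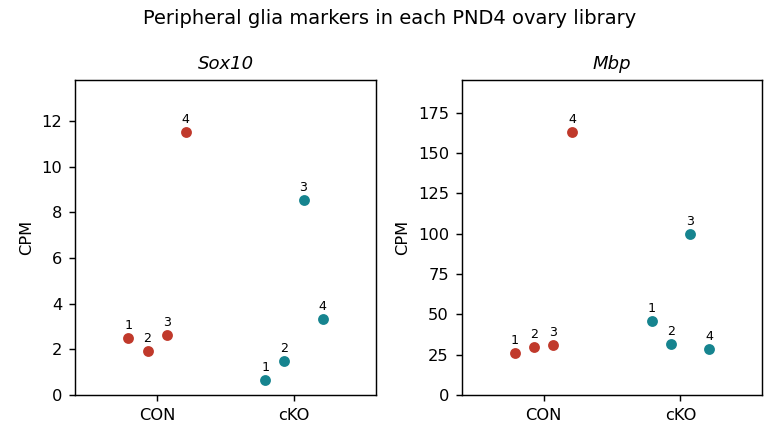
CPM after TMM scaling (linear axes from 0) of the glia markers *Sox10* and *Mbp* in the 4 CON (red) and 4 cKO (blue-green) libraries, numbered 1 to 4, without means. CON 4 and cKO 3 hold the highest values of their genotypes, at 11.5 and 8.55 CPM of *Sox10* and 163 and 99.9 CPM of *Mbp*.

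Markers of other neurons gave low values. Cholinergic markers summed to between 4.76 and 6.19 CPM in CON libraries and between 4.54 and 6.74 CPM in cKO libraries, and sensory neuron markers to 6.07 to 11.5 and 9.33 to 14.7 CPM. Among the latter, *Pou4f1*, a factor of sensory neurons, rose by 0.77 (SE 0.19, edgeR adjusted p = 0.0433, and 0.0279 to 0.129 when single libraries were left out, failing for all but CON 1 and cKO 4), with CON libraries at 2.18 to 3.24 CPM and cKO libraries at 3.73 to 5.30 CPM. Genes of the adrenal cortex, whose medulla holds noradrenaline cells, summed to at most 8.48 CPM, in CON 4, and *Cyp11b2* had no read. In CON 4, *Mrap* alone had 6.65 CPM, while *Cyp11b1* and *Cyp21a1* had 0.0573 CPM each. *Dbh* and *Phox2a*, which mark the cells of the adrenal medulla and of sympathetic ganglia, were at or near 0 in all 8 libraries.

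The genes most like *Slc6a2* over all 8 libraries, by Pearson's r of log2 CPM, were *Got2* (0.988), *Hand2* (0.979), *Slc3a2* (0.972), *2310009B15Rik* (0.971) and *Zfp934* (0.97), and *Gap43* was in place 22. Those most like *Hand2* were *Rpl14* (0.981), *Hspbp1* (0.979), *Slc6a2* (0.979), *Zfp934* (0.978) and *Npm1* (0.976). These correlations contain the genotype difference. Apart from *Slc6a2* and *Hand2* themselves, the genes listed differ little in size, such as *Got2*, an aminotransferase of mitochondria, with 112 to 120 CPM in the CON and 103 to 105 CPM in the cKO libraries. Within genotypes, among the 5 genes most like *Slc6a2* were *Inpp4b* (r = 0.987), *Pde4d* (0.939), *Dab2ip* (0.933) and *Jmy* (0.933), and *Gap43* and *Hand2* were in places 77 and 83 of the tested genes. *Inpp4b*, a phosphoinositide phosphatase, lay at 13.9 to 20.3 CPM in the CON and 12.4 to 14.8 CPM in the cKO libraries.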

How the data were processed

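Whole ovaries of PND4 mice were sequenced as 8 stranded mRNA libraries, 4 CON and 4 cKO. The authors removed low-quality reads, used STAR to align the pairs to GRCm38 (mm10), and obtained the deposited counts from featureCounts. Tool versions, gene annotation and strand setting are not given in the sources used here. A second deposited table holds the authors' DESeq2 comparison and was not used. The columns could be matched to a genotype but not to single sample titles. No label gives a litter, batch or pairing. The p-values therefore set the genotype difference against the spread between these libraries, and cannot separate genotype from litter or batch.

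Counts were analyzed with the quasi-likelihood F test of edgeR 4.0.16 in R 4.3.3 (robust fit, TMM scaling, filterByExpr, Benjamini-Hochberg adjustment over 15257 genes). Passed means an adjusted p under 0.05, and called adds a fold change of at least 1.5. The SE was obtained by dividing the log2 fold change by the square root of F. Symbols were joined for 99.73% of 24823 gene IDs. Scripts were tested on simulated counts. Alternatives were RLE, upper quartile or no scaling factor, 2 other count filters, DESeq2 1.42.0, limma-voom (limma 3.58.1), no fold threshold, log2(CPM + 0.5), and leaving out 1 or 2 libraries. The removal of CON 4 with cKO 3 was added after seeing the data.

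The 8 genes, all gene lists and the tests were chosen with earlier results of these data known. Named are the 8 genes, every noradrenaline gene and sympathetic transcription factor listed, in other pathway lists the called genes and up to 4 tested genes with the smallest p, *Nr5a2*, *Amhr2*, and the 5 genes most like *Slc6a2* or *Hand2*. A few genes covered by this rule are left out. Marker genes and *Hand2os1* were named after their values were seen. Sequences are from RefSeq (GRCm38.p6).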

Additional observations from a re-analysis of the deposited data

Results flagged for a closer look

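Within groups of 4 libraries, a single library lay far from the other 3 in 7 of 52 groups of values, where chance gives about 1 in 20. *Slc6a2* had 0.562 CPM in cKO 3, against 1.12 to 1.18 CPM in the other cKO libraries. *Gap43* had 19.98 CPM in CON 2, against 10.04 to 10.99 CPM in the other CON libraries. The summed glia markers were 1040 CPM in CON 4, against 353 to 369 CPM, and 756 CPM in cKO 3, against 309 to 361 CPM. Fat cell genes summed to 399 CPM in CON 4, against 26.8 to 48.9 CPM, and skeletal muscle genes to 24.1 CPM in CON 4, against 3.66 to 5.45 CPM. Cholinergic markers summed to 6.19 CPM in CON 3, against 4.76 to 4.86 CPM. CON 4 thus stood apart for glia, fat and skeletal muscle genes together, and its *Slc6a2* level was the lowest of the CON libraries. What these libraries hold beside ovary was not tested.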

How the results depend on the processing

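The directions of the log2 fold changes of *Slc6a2*, *Hand2*, *Gap43*, *Th*, *Slc18a2* and *Ngfr* held under all 18 alternatives. They ranged from -1.92 to -1.47 for *Hand2*, from -1.45 to -0.90 for *Gap43*, from 0.49 to 0.95 for *Th*, from 0.44 to 0.84 for *Slc18a2* and from 0.15 to 0.46 for *Ngfr*. *Npy* reversed, to 0.13, without cKO 1 and cKO 2, and was not tested at 10 or more counts in every library. The r of *Slc6a2* and *Hand2* deviations was 0.82 on log2(CPM + 0.5). Calls were less stable, and the cause was not tested. Over all genes, 215 were called, 433 with DESeq2, 301 with limma-voom and 1056 with no fold threshold. Leaving out libraries gave 69 without CON 1 and CON 3, 0 without CON 4 and cKO 3, and 0 to 407 without 1 library at a time. The 0 came without CON 2 (1565 lower and 1749 higher at an unadjusted p under 0.05) and without CON 3 (1488 and 1771). Of the 8 genes, 3 were called, 1 (*Slc6a2*) without cKO 1 and cKO 2, 0 without CON 4 and cKO 3 (3 lower and 1 higher at an unadjusted p under 0.05), and 0 to 5 without 1 library. DESeq2 and limma-voom each called 4, adding *Th*. Of the other pathway genes, 2 were called, 8 with DESeq2, 6 with limma-voom, 4 with no fold threshold, 1 (*Artn*) without cKO 1 and cKO 2, 0 without CON 4 and cKO 3 (12 lower and 11 higher at an unadjusted p under 0.05), and 0 to 4 without 1 library. No paired analysis was possible because the sample titles of the genotypes share no replicate number, the column numbers could not be matched to these titles, and no label names a litter. Each cKO library held 13 to 29 reads of *Slc6a2*, and every library 0 to 11 of *Dbh*. *Npy* had 8 reads in cKO 1 and 10 in cKO 2. At this depth, small differences in these genes were not detectable.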
